A study of Mus musculus with 6 samples.

Results

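The transcripts described here are 71 array probes without a protein-coding RefSeq accession that gave a higher signal in islet cells cultured with T lymphocyte exosomes. They were taken from the 31766 probes of the authors' table of log2 values. Of these probes, 8885 carried a systematic name that does not start with NM_ or XM_, the RefSeq prefixes of protein-coding messages. A probe was taken when the mean of the 3 exoNOD arrays lay at least 1 above the mean of the 3 control arrays on the log2 scale (a doubling of signal) and its lowest exoNOD value exceeded its highest control value. The exoNOD and control values therefore chose the members, and their differences between the groups are given as a description without a test.

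Islets of C57Bl/6N males were dispersed, the cells were cultured for 72 h, and total RNA was measured on 1-colour Agilent arrays. The exoNOD cells (3 arrays) received 50 µg/ml of exosomes, small vesicles that CD4+CD25- T lymphocytes release into their medium. The lymphocytes came from the NOD mouse, in which diabetes arises by autoimmunity. The control cells (3 arrays) received no exosomes. Each of the 3 experiments had its own islet and exosome preparation, and the labels state no number of animals. All groups were whole dispersed islet cells, so a change in the share of a cell type and a change of RNA within its cells cannot be told apart.

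By the scan time in the file headers, the 3 control arrays and exoNOD replicate 1 were read in 1 scan (scan 1) and exoNOD replicates 2 and 3 in a second (scan 2). Scan 2 held no control array, so for these 2 arrays scan and treatment cannot be told apart. Among the exoNOD arrays, scan and the preparations of the replicates cannot be told apart either. The values of exoNOD replicate 1, the treated array of scan 1, are given beside the main results. Each array had 43020 spots for transcripts, of which 78.05% to 81.77% were well above background. The median signal lay between 121 and 140.5 on the exoNOD arrays and between 111.5 and 116.7 on the control arrays, and 0 spots were saturated. The number of arrays limits the precision.

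Many transcripts of mammalian cells carry no protein. Long noncoding RNAs are transcribed and processed much like messages and are known to act on chromatin, on neighbouring genes or on other RNAs, and their levels often differ sharply between cell types. Array designs also hold probes to cDNA clones, assembled expressed sequences and predicted transcripts whose coding status was open when the array was made. A probe without a named gene can therefore read a noncoding RNA, a pseudogene or an alternative end of an ordinary message.

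The systematic names show how far the word noncoding applies to these members. Of the 71 probes, 6 had an NR_ accession and 2 an XR_ accession, the RefSeq prefixes of transcripts without a coding frame. The other members comprised 21 probes listed under their own probe name, 18 GenBank accessions of cDNA clones or expressed tags, 13 sequence assemblies (5 with TC and 8 with NAP names), 10 Ensembl transcripts and 1 further name. Ensembl transcripts and cDNA clones can be coding, so noncoding status is given by the names of 8 members only. Because 3 probes carried NR_002860, the 71 probes had 69 distinct names. Only 2 members matched a RefSeq gene of GRCm38.p6, NR_045361 (4921531P14Rik) and NR_027643 (4932435O22Rik), both annotated as lncRNA.

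The promoter of 4932435O22Rik is shown as the one member whose start is given here from RefSeq. It lies at chr11:114448811-114449110 of GRCm38.p6 on the minus strand, and capitals mark CCAAT and CACGT, which reads ACGTG on the other strand.
4932435O22Rik promoter: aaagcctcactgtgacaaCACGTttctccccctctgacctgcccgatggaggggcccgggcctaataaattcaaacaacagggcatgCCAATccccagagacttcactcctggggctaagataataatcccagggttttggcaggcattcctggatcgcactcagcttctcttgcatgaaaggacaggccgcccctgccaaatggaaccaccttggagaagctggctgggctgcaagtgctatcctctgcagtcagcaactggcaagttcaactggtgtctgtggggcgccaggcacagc
Searched on both strands, these 300 bases held 1 match of CCAAT, the CCAAT box, and 1 of ACGTG, the core of the hypoxia response element, which do not overlap. Of 32851 promoters of the same length, 37.4% held CCAAT and 19.6% held ACGTG. The TATA box TATAAA (in 13.6% of promoters), the AP-1 motif TGANTCA (7.81%), the STAT motif TTCNNNGAA (8.3%) and the interferon-stimulated response element (3.44%) were not found in this window.

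Members made up 0.799% of the 8885 probes without an NM_ or XM_ name. The same rule took 129 of 22881 NM_ and XM_ probes (0.564%), and over the whole table it took 200 probes (0.63%). The mirror rule for falls took 13 probes without an NM_ or XM_ name (0.146%) and 38 NM_ and XM_ probes (0.166%). Apart from the 10 probes with other names, of which 1 was a member, assemblies had the highest share, with 13 of 1046 (1.24%), followed by probes under their own name with 21 of 1981 (1.06%). Probes with XR_ names followed with 2 of 229 (0.873%), cDNA accessions with 18 of 2446 (0.736%), NR_ names with 6 of 866 (0.693%) and Ensembl transcripts with 10 of 2307 (0.433%). A lack of overlap with exoNOD higher, by any amount, was found for 12.2% of the probes without an NM_ or XM_ name and for 7.8% of the NM_ and XM_ probes. Probes are not independent replicates and these shares were not tested.

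**Figure D1:**
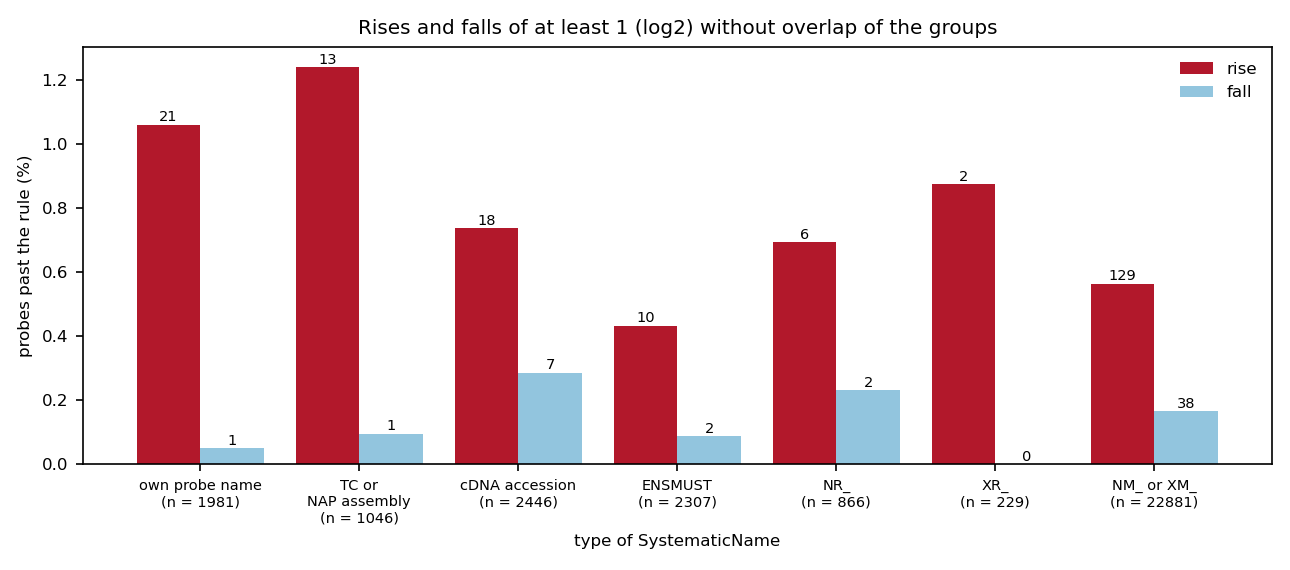
Share of probes (in percent, vertical axis) that were higher (red) or lower (light blue) in exoNOD cells by at least 1 on the log2 scale without overlap of the groups, by type of systematic name, with the number of probes under each type. More probes were higher than lower in every type drawn, with 21 against 1 for probes under their own name and 129 against 38 for NM_ and XM_ probes.

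The differences of the 71 members ranged from 1.00 to 1.76 with a median of 1.14 (log2). The gap between the lowest exoNOD and the highest control value exceeded 0.5 for 30 members. Just inside the limit of 1 lay ENSMUST00000103266 (1.0014), A_55_P2020538 (1.0016) and A_55_P2176894 (1.0020). Just outside, without overlap, lay NR_028497 (0.9935), A_55_P2118810 (0.9922) and ENSMUST00000169587 (0.9859). A further 37 probes without an NM_ or XM_ name differed by 1 or more but had overlapping groups.

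Of the 71 members, 12 passed in limma without a block at an adjusted p under 0.05, where 22 of 31044 tested probes (0.0709%) passed, 0.0676% with a higher exoNOD level. With the replicate number as a block 69 passed, where 8.18% of all tested probes did, 6.46% with a higher exoNOD level. With the scan as a block, or on the scan 1 arrays alone, 0 probes passed with a higher exoNOD level and 2 with a lower one (1049 and 1319 at an unadjusted p under 0.05), so 0 members passed there. The same arrays chose the members, so nothing is read from these counts.

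The members followed a few array profiles. They were grouped by the correlation of their values over the 6 arrays (average linkage, mean correlation of at least 0.95). Of the 71, 54 fell into 3 sets of 30, 16 and 8 probes, and 17 lay outside these sets. Among the 17, 3 probes (A_55_P1957871, A_55_P2172779 and A_55_P2020538) formed a further small set, and 14 joined no set of at least 3. The rule itself makes members alike over these arrays. Of the members, 40.8%, 23.9% and 15.5% correlated at 0.95 or more with the mean profile of the sets of 30, 16 and 8. Of the 129 NM_ and XM_ probes taken by the same rule, 22.5%, 17.1% and 20.2% did. Over all probes of the table the shares were 2.97%, 0.601% and 0.554%. All 6 arrays entered the grouping, so the sets are a description. They differ mainly in exoNOD replicate 1, the treated array that was read in the scan of the controls, and in control replicate 3. Over all members exoNOD replicates 1, 2 and 3 lay a median of 0.84, 1.26 and 1.55 above the control mean. Within the pairs of equal replicate number the median difference was 0.89, 1.30 and 1.29, where the lack of overlap fixes a positive sign for each member. On exoNOD replicate 1 alone 26 of the 71 members (36.6%) lay at least 1 above the control mean. Of the 129 NM_ and XM_ probes taken by the same rule, 73 (56.6%) did. These probes also had the larger differences, with a median of 1.28 against 1.14 for the members. The part of the difference carried by exoNOD replicate 1 had a median of 0.76 in the members and 0.79 in these probes. These contrasts were not tested.

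**Figure D2:**
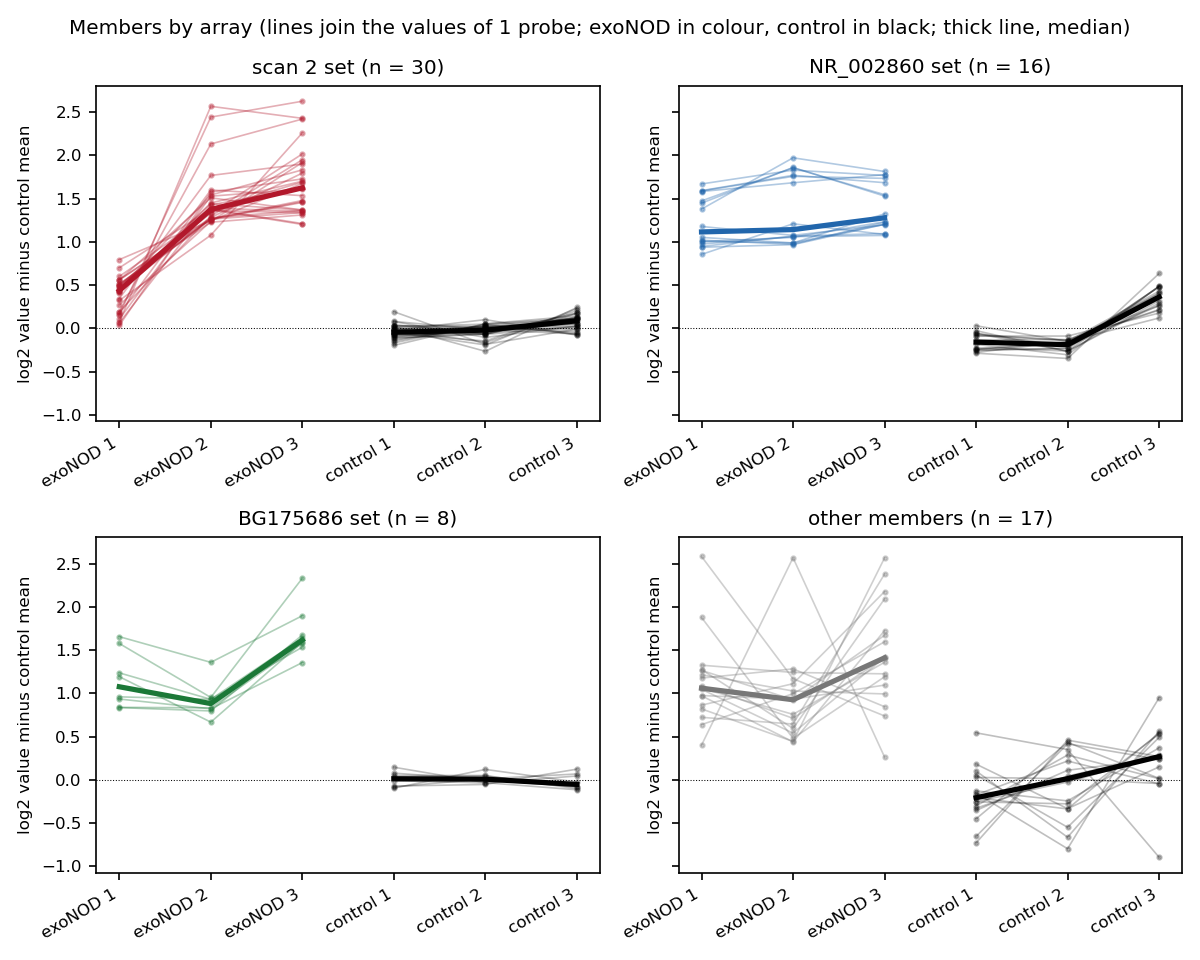
Log2 value of each member minus its control mean (vertical axis) on the 3 exoNOD arrays (colour) and the 3 control arrays (black), in 4 panels for the 3 profile sets and the other members, with the median as a thick line. In the scan 2 set exoNOD replicate 1 lies a median of 0.44 above the control mean, against 1.38 and 1.63 for exoNOD replicates 2 and 3, and in the NR_002860 set control replicate 3 lies above the other controls.

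The first set held 30 members and is called the scan 2 set, after the 2 arrays where it was highest. The name states no cause. Their values on exoNOD replicate 1 lay a median of 0.44 above the control mean and at most 0.80, while exoNOD replicates 2 and 3 lay a median of 1.38 and 1.63 above it. Thus 0 of the 30 reached a difference of 1 on the only exoNOD array read together with the controls. The set comprised 9 probes under their own name, 8 assemblies, 6 Ensembl transcripts, 5 cDNA accessions, XR_106168 and NP063432, and no NR_ accession.

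The 2 largest differences of this set belonged to assemblies and the next to a probe under its own name. NAP068451-1 had 7.29, 9.57 and 9.76 on exoNOD replicates 1, 2 and 3, against 7.05, 7.15 and 7.19 on control replicates 1, 2 and 3, a mean of 8.87 ± 1.38 against 7.13 ± 0.07 (SD, n = 3 each). NAP094932-001 had 8.75, 11.25 and 11.11 on the exoNOD arrays, against 8.70, 8.73 and 8.61 on the control arrays. A_55_P2126652 had 5.60, 7.54 and 7.82 on the exoNOD arrays, against 5.60, 5.22 and 5.39 on the control arrays. For these 3 probes exoNOD replicate 1 lay beside the controls, and the step lay between it and exoNOD replicates 2 and 3. On scan 1, exoNOD replicate 1 lay 0.16 above the control mean for NAP068451-1, 0.07 for NAP094932-001 and 0.20 for A_55_P2126652.

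For 9 members exoNOD replicate 1 carried under 0.25 of the mean difference, all of them in this set. TC1636993 was the extreme, with 7.44, 8.98 and 9.14 on the exoNOD arrays, against 7.41, 7.39 and 7.42 on the control arrays. NAP069152-1 had 7.26, 8.62 and 8.82 in exoNOD cells, against 7.22, 7.22 and 7.14 in control cells. NAP070198-1 had 6.78, 8.20 and 8.28 in exoNOD cells, against 6.65, 6.77 and 6.59 in control cells. NP063432, A_55_P2050526 and A_55_P1958863 showed the same step. In these 9 probes the groups were kept apart by gaps of between 0.0020 and 0.16 (log2). The 9 were 12.7% of the members, while 2 of the 129 NM_ and XM_ rises (1.55%) had so small a part of their difference on exoNOD replicate 1, and this contrast was not tested.

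In the other 21 probes of the set the value on exoNOD replicate 1 was intermediate. ENSMUST00000114452 had 10.08, 11.10 and 11.35 on the exoNOD arrays, against 9.54, 9.58 and 9.82 on the control arrays. A_55_P2050722 had 6.01, 7.09 and 7.38 on the exoNOD arrays, against 5.49, 5.40 and 5.76 on the control arrays. A_55_P2033665 had 9.46, 10.23 and 10.43 on the exoNOD arrays, against 8.98, 8.98 and 8.96 on the control arrays. These 3 lay closest to the mean profile of the set. A_55_P2176894, whose signal was among the highest of the members, had 13.09, 14.06 and 13.89 in exoNOD cells, against 12.53, 12.72 and 12.78 in control cells.

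The NM_ probes nearest to the mean profile of this set over the 6 arrays, among those at least 1 higher, were Golga7b, Gxylt2, a xylosyltransferase gene, and Golt1a, of Golgi transport (Pearson r of at least 0.99 each). For NAP068451-1 they were Cox17, a copper chaperone of cytochrome c oxidase (difference 1.95), and Ptma, which encodes prothymosin alpha (2.14). Ptma had 7.73, 10.67 and 10.50 on the exoNOD arrays, against 7.34, 7.58 and 7.55 on the control arrays. Of all 31766 probes, 942 (2.97%) correlated at 0.95 or more with the mean profile of the set, with a median difference of 0.50, and 409 (1.29%) correlated as strongly in the opposite direction. The share of 0.95 or more was 4.74% of the probes without an NM_ or XM_ name and 2.28% of the NM_ and XM_ probes. All these correlations share the 6 arrays and the scans.

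**Figure D3:**
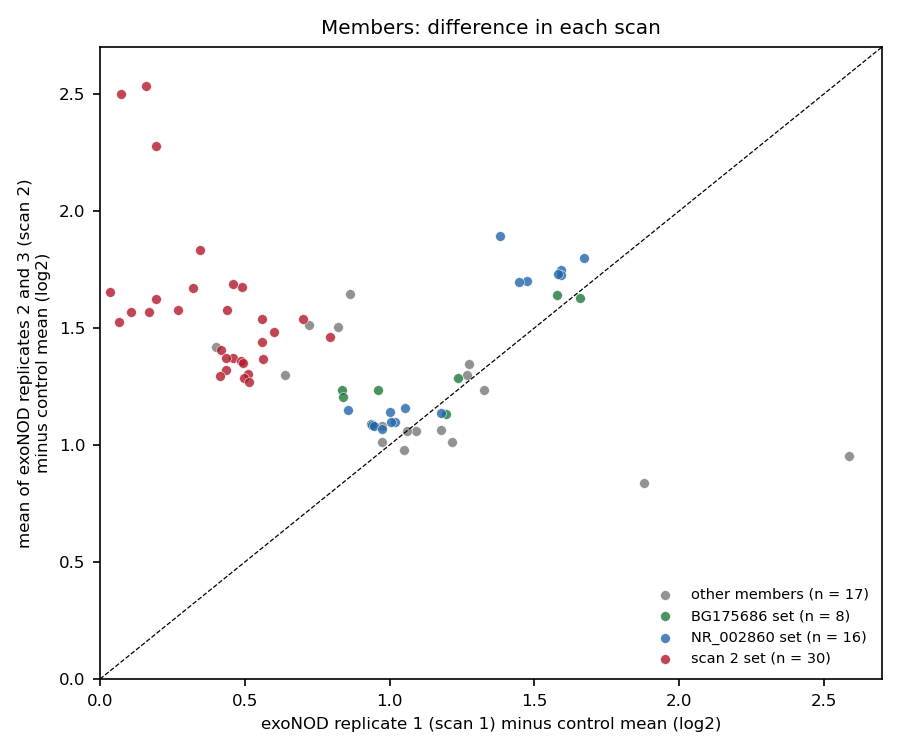
For each member, the value on exoNOD replicate 1 minus the control mean (horizontal axis, scan 1) against the mean of exoNOD replicates 2 and 3 minus the control mean (vertical axis, scan 2), both on the log2 scale, with the line of equal differences dashed. The 30 probes of the scan 2 set all lie left of 0.80 on the horizontal axis, while the NR_002860 and BG175686 sets lie between 0.84 and 1.67.

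The second set held 16 members and is called the NR_002860 set, after an accession with 3 probes in it. Here the 3 exoNOD arrays were alike, at medians of 1.12, 1.14 and 1.28 above the control mean, and control replicate 3 lay a median of 0.55 above the mean of control replicates 1 and 2. On exoNOD replicate 1 alone 12 of the 16 were at least 1 above the control mean. The set held all 3 probes of NR_002860, NR_033577, 4 cDNA accessions, 3 assemblies and 5 probes under their own name, and all 16 were above background on all 6 arrays.

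The probe A_55_P2116650 of NR_002860 had 11.67, 11.77 and 11.86 on the exoNOD arrays, against 9.90, 9.78 and 10.57 on the control arrays (3.21-fold by the means). A second probe, A_55_P1954724, had 11.83, 12.24 and 11.91 on the exoNOD arrays, against 10.14, 10.21 and 10.78 on the control arrays (3.06-fold). The third, A_55_P1973347, had 9.45, 9.80 and 9.68 on the exoNOD arrays, against 8.31, 8.44 and 9.02 on the control arrays. All 3 probes placed every exoNOD array above every control and control replicate 3 above the other controls, but the third gave a difference of 1.05, against 1.68 and 1.61 for the others. The files pair NR_002860 with no gene name.

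Several members without a RefSeq name repeated the values of these probes. Across the 71 members there are 2485 pairs, and in 22 of them the values of both probes, each taken relative to its own mean, differed by at most 0.1 on every array. AK019465 stayed within 0.020 of the NR_002860 probe A_55_P1954724, with a difference of 1.63. AK132033 and TC1616199 stayed within 0.044 of each other, and AK035396 within 0.049 of AK132033. Each of the 22 pairs lay within a single set, and 24 members belonged to at least 1 of them. The rule makes members alike over these arrays, and no such count is given for other probes. The files give no probe sequences, so whether such probes read the same transcript, and the 71 probes stand for fewer transcripts, was not tested.

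AK035396 had the largest difference of all members, with 11.42, 11.58 and 11.52 on the exoNOD arrays, against 9.49, 9.52 and 10.23 on the control arrays, a mean of 11.51 ± 0.08 against 9.75 ± 0.42 (SD, n = 3 each). AF142780 had 7.27, 7.86 and 7.71 on the exoNOD arrays, against 5.60, 5.54 and 6.53 on the control arrays. NR_033577 had 6.41, 6.30 and 6.43 on the exoNOD arrays, against 5.26, 5.08 and 5.35 on the control arrays. In this set the controls were spread more widely than the exoNOD arrays for the members with the largest differences, because control replicate 3 stood higher.

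**Figure D4:**
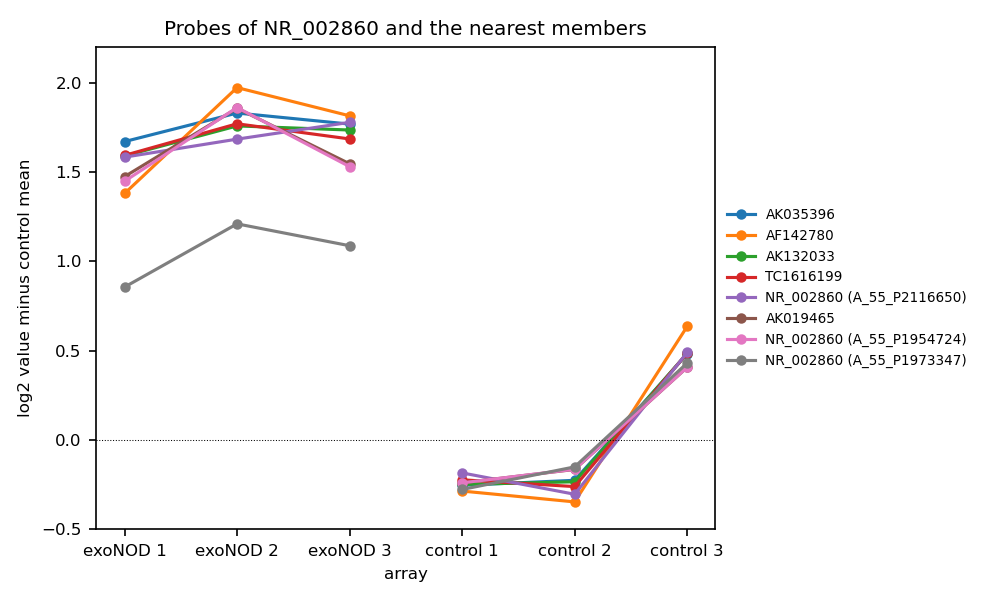
Log2 value minus the control mean (vertical axis) on each array for the 3 probes of NR_002860 and 5 other members of its set. Apart from the NR_002860 probe A_55_P1973347, the lines lie between 1.38 and 1.97 on the exoNOD arrays, and control replicate 3 is the highest control for every probe.

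The NM_ probes nearest to the mean profile of the NR_002860 set were those of Ldha, which encodes the A subunit of lactate dehydrogenase, Xdh, which encodes xanthine dehydrogenase, and Cdh11, a cadherin of mesenchymal cells (r of at least 0.99 each). The Ldha probe A_55_P2141878 had 10.00, 9.94 and 10.02 on the exoNOD arrays, against 8.83, 8.71 and 9.22 on the control arrays. Its difference was 1.07. A second Ldha probe, A_55_P2012984, differed by 0.96 and was less like the set, with r between 0.88 and 0.98 to its single members. The members of the set with neither a RefSeq nor a cDNA name, apart from TC1616199, differed by 1.04 to 1.12. AF142780 was nearest to Pdcd1lg2, which encodes the checkpoint ligand PD-L2, and to Egr2, a transcription factor gene, with differences of 2.16 and 1.35. AK019465 was nearest to Grem1, which encodes an antagonist of bone morphogenetic proteins and was above background on all 3 exoNOD arrays but on 1 of 3 control arrays.

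The third set held 8 members and is called the BG175686 set. Its exoNOD arrays lay a median of 1.08, 0.88 and 1.62 above the control mean, and control replicate 3 did not stand apart (median -0.08 relative to the other controls). BG175686, an expressed tag, had 10.27, 9.97 and 10.51 on the exoNOD arrays, against 8.65, 8.66 and 8.53 on the control arrays, which is a 3.11-fold higher mean. Its gap of 1.32 between the lowest exoNOD and the highest control value was the widest of the 71 members. CK031974 had 7.29, 6.67 and 8.05 on the exoNOD arrays, against 5.63, 5.73 and 5.78 on the control arrays. XR_105218 had 8.75, 8.64 and 9.17 on the exoNOD arrays, against 7.74, 7.76 and 7.94 on the control arrays. All 8 probes had their highest value on exoNOD replicate 3, and their control values lay close together.

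The lncRNA 4921531P14Rik belongs to the BG175686 set and had 6.89, 6.58 and 7.29 on the exoNOD arrays, against 5.70, 5.70 and 5.55 on the control arrays (2.41-fold). It was above background on every array. Its nearest protein-coding neighbours in RefSeq, Zfp516, a zinc finger gene, and Tshz1, a homeobox gene, had differences of -0.34 ± 0.17 (SE, limma adjusted p = 0.353) and -0.25 ± 0.12 (0.338) on the scale of the 75th percentile of each array, so neither passed. The NM_ probes nearest to BG175686 were those of Tpsb2, a mast cell tryptase gene (difference 1.25), and Rnase10, of the ribonuclease A family (1.54). Defb45, a beta-defensin gene, was nearest to CK031974 (1.37).

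The lncRNA 4932435O22Rik, whose promoter is printed above, was not well above background on any control array and was above it on all 3 exoNOD arrays. Its values were 4.90, 3.50 and 4.21 on the exoNOD arrays, against 2.36, 3.43 and 3.25 on the control arrays, so the groups were kept apart by 0.06. The exoNOD mean was at least 1.92 times as high, taken against the lowest signal above background of each control array. Of its RefSeq neighbours, Sdk2, which encodes a cell adhesion molecule, differed by 0.39 ± 0.18 (SE, limma adjusted p = 0.339) and Rpl38, which encodes a ribosomal protein, by -0.14 ± 0.11 (0.562).

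Dim signal marks 13 of the members. In all, 58 members were well above background on all 6 arrays. On all exoNOD arrays but on 0 control arrays stood 7 members, and 6 were above background on 1 or 2 control arrays. The 7 comprise 4932435O22Rik with ENSMUST00000042671 (at least 2.19-fold higher), A_55_P2106588 (at least 1.93-fold), NAP059186-1 (at least 1.88-fold), AK157781 (at least 1.80-fold), A_55_P2172779 (at least 1.57-fold) and CJ239155 (at least 1.52-fold). Only 1 of the 13 dim members belonged to the scan 2 set, and 0 of the 16 in the NR_002860 set were dim. None of the 71 members had a spot marked uneven on any array.

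The 17 members outside the 3 sets include probes with 1 exoNOD array far above the others. AK083927, a cDNA clone, had 4.85, 7.02 and 4.72 on the exoNOD arrays, against 4.48, 4.47 and 4.41 on the control arrays, so exoNOD replicate 2 was far above the other exoNOD arrays, which lay close to the controls. ENSMUST00000063656 had 5.68, 4.26 and 3.83 on the exoNOD arrays, against 2.36, 3.55 and 3.36 on the control arrays, with exoNOD replicate 1 highest. A_55_P2014274 had the smallest spread over exoNOD arrays of all members, with 10.82, 10.73 and 10.72 on the exoNOD arrays, against 9.32, 9.71 and 9.45 on the control arrays, a mean of 10.76 ± 0.05 against 9.49 ± 0.20 (SD, n = 3 each). BC029734 had 6.86, 7.11 and 8.18 on the exoNOD arrays, against 5.64, 6.11 and 6.24 on the control arrays. The remaining probes of this group had differences of at most 1.32.

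The members were also split by exoNOD replicate 1. The part of the mean difference carried by exoNOD replicate 1 was under 0.75 for 35 members (49.3%) and at least 0.75 for 36. Of the 129 NM_ and XM_ probes taken by the same rule, 56 (43.4%) had a part under 0.75, a similar share. All 6 NR_ probes were in the second class, and 10 of the 13 assemblies in the first. The highest value lay on exoNOD replicate 3 for 50 members, on replicate 2 for 17 and on replicate 1 for 4. Among the 9 members with exoNOD replicate 2 highest and a part under 0.75, the profile was best represented by A_55_P2176894, TC1607963 and AK079287. The nearest NM_ probes were those of Tnfrsf9, a costimulatory receptor of T lymphocytes, Bpifc and Arhgef15. For the 26 with exoNOD replicate 3 highest and a part under 0.75, the nearest members were ENSMUST00000084653, A_55_P2143436 and TC1648127 and the nearest NM_ probes Golt1a, Hs2st1, a heparan sulfate sulfotransferase gene, and Sp6, a transcription factor gene. The 24 with replicate 3 highest and a part of at least 0.75 were closest to XR_105218, A_55_P2037689 and A_55_P2069995, and to the NM_ probes of Gm5458, 4930555G01Rik and the odorant receptor gene Olfr1198.

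Noncoding RNAs of known function were looked up by list. Of 49 well known long noncoding RNAs listed, 28 had a probe and 25 were tested, with a median difference of -0.05, against 0.02 over all 31044 tested probes. Without a block 0 passed in limma in either direction (7 at an unadjusted p under 0.05, as were 4909 of all 31044 tested probes). With the replicate block 1 rose and 2 fell, where 8.18% of all tested probes passed. Meg3, a maternally expressed lncRNA abundant in islets, fell with the block by 0.39 on the log2 scale (limma adjusted p = 0.0250 with the block, 0.248 without). Its levels relative to the 75th percentile of each array were 3.74, 3.93 and 3.52 in exoNOD cells, against 4.20, 4.21 and 3.94 in control cells, without overlap. Peg13, a paternally expressed lncRNA, fell with the block by 0.45 (0.0129, and 0.245 without), and Nron, a noncoding repressor of NFAT, rose by 0.51 with the block (0.0418, and 0.237 without). Fendrr (0.73, limma adjusted p = 0.109 with the block) and Xist (0.68, 0.0677) were also higher without overlap but passed in neither fit. Fendrr was above background on 1 of 3 control arrays. Of the 25 tested, 9 were higher in exoNOD cells. Neat1, the lncRNA of nuclear paraspeckles, had 3.30, 3.55 and 4.27 in exoNOD cells, against 3.23, 3.47 and 4.57 in control cells, and a difference of -0.05 (0.956, and 0.776 with the block).

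The next lists share genes with the list above: Meg3, Mirg, Tug1 and Malat1 for islets, and Neat1 and Malat1 for inflammation. Of noncoding RNAs reported in islets 6 of 13 were tested, with a median of -0.23, 0 higher in exoNOD cells and 1 fall with the block (Meg3, as above). Of those reported in inflammation or immune cells 4 of 18 were tested and 0 passed in limma in either fit (2 at an unadjusted p under 0.05 without the block, 3 with it), among them Morrbid (0.49, limma adjusted p = 0.279) and Mirt1 (0.43, 0.265). Mirt2, also on this list, was too dim to be tested. Its values were -6.85, -7.07 and -6.03 in exoNOD cells, against -8.39, -8.48 and -8.66 in control cells. Its signal was well above background on 1 exoNOD array and on 0 control arrays. Of 11 miRNA host transcripts 2 were tested and 0 passed in limma in either fit, nor at an unadjusted p under 0.05. None of the genes on these lists is a member.

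The islet identity of the samples and other cell types were checked with marker lists. All 10 islet endocrine markers had a probe above background, and their summed level (log2, relative to the 75th percentile) was 11.1 on every exoNOD array and 11.2 on every control array, while Slc2a2, the glucose transporter of beta cells, fell with the block. No marker passed in limma without the block, and with it 8.18% of all tested probes passed, 6.46% with a higher exoNOD level. B lymphocyte markers were low but did not overlap between groups, with sums from -1.72 to -1.51 in exoNOD cells, against -2.50 to -2.23 in control cells, and Cd79b and Ms4a1 rose with the block (2 of 4). Macrophage sums were 3.94 to 3.97 in exoNOD cells, against 4.35 to 4.44 in control cells, and Itgam and Adgre1 fell with the block (2 of 4). These sums rested mainly on Itgam, with a mean of 3.67 in exoNOD cells, against 4.17 in control cells. Csf1r and Lyz2 each differed by -0.02. For T lymphocyte markers the sums were 3.81 to 4.19 in exoNOD cells, against 3.81 to 4.24 in control cells, with Cd3g at background on all 6 arrays and Lck rose with the block (1 of 3 tested). Fibroblast sums were 5.66 to 6.16 in exoNOD cells, against 5.31 to 5.90 in control cells, and Pdgfra rose with the block (1 of 5). Endothelial sums were 0.953 to 1.16 in exoNOD cells, against 1.03 to 1.29 in control cells, and Cdh5 fell with the block (1 of 4). Acinar (Cpa1), duct (Spp1) and testis (Ldhc) markers also had overlapping sums, with 1 rise each with the block. B lymphocyte and macrophage sums thus did not overlap between groups, as the islet sums did not. How often sums of other genes fail to overlap was not tested. The part of any cell type in the members' values was not tested.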

How the data were processed

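Total RNA of 6 islet cell cultures was labelled with Cy3 and hybridised to Agilent arrays. The deposited scanner files hold, per the file headers, intensity values from Agilent Feature Extraction 11.0.1.1 (also in the submitters' processing notes), background-subtracted within the array, with other values as flags (0 or 1) for spots above background. The authors' table holds deposited log2 values of 31766 probes on the scale of the processed signal. Set against the scanner files, they lie within 0.00011 (median absolute difference on each array) of quantile-normalized processed signals, with a median of 7.92 in each column and no centring of genes. The step is not given in the sources used here.

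For the fit across probes, log2 processed signals were averaged per probe and set against the 75th percentile of each array. Probes above background on every array of a group (31044) were fitted in limma 3.58.1 (R 4.3.3, eBayes with a trend, Benjamini-Hochberg). The replicate numbers were taken as pairs, because arrays of equal number deviated together (r of 0.361, 0.295 and 0.473). The labels do not state a pairing, so fits without and with the block are given. Names came from RefSeq accessions (GRCm38.p6). Profile sets were made in SciPy 1.17.1. The fit was tested on simulated data.

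Named members were planned as those with an established symbol, which no member had, and the 4 with the largest difference in each name type. Those next to the limit, repeated names and those nearest to a profile were also planned. Some of these, such as ENSMUST00000168165, are not described above. Other described members were chosen after their values were seen, as were the 3 sets. The members and lists were chosen with earlier results of these data known. The files lack a mean signal and gene names, so normexp used the median signal and a stricter definition of unnamed was not run.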

Additional observations from a re-analysis of the deposited data

How the results depend on the processing

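The number of members was 71 in the authors' values. It was 137 with the 75th percentile of the array signals (68 of the 71 among them), 44 with normexp background correction (28), 70 after quantile normalization (69) and 65 with the array median (47). The authors' values are nearly equal to quantile-normalized signals, so the quantile setting is no separate check. The number of members was 12 at a limit of 1.5. With a rise in all 3 pairs in place of no overlap, the form of the rule with the replicate block, it was 94. Leaving out single arrays gave 43 to 185 members, the most (185) when exoNOD replicate 1 was left out, the fewest (43) for exoNOD replicate 3, and 123 for control replicate 3. As a percentage of the probes without an NM_ or XM_ name this was 1.54% with the 75th percentile and 0.495% with normexp, against 0.799%, and 0.484% to 2.08% without single arrays. The median difference of the members lay between 0.95 and 1.37 under the other scalings and without single arrays. On exoNOD replicate 1 it was 0.84, and 0.43 with normexp. Of 370 differences of 37 named members under other settings, 2 were labelled as moved, BG175686 to 1.38 with normexp and A_55_P2172779 to 1.73 with the 75th percentile. This label does not follow the size of the change, so the other differences cannot be called stable. Without exoNOD replicate 1 the difference of NAP068451-1 was 2.54, against 1.74. Without exoNOD replicate 3 that of TC1752282 was 0.68, against 1.25. Where single arrays are left out, the rule itself fixes the sign of these differences.

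Limma called 22 probes, and 2540 with the replicate block, 174 with normexp, 11 with the array median and 2, both lower in exoNOD cells, with the scan as a block or in scan 1 alone. It called 0 after quantile normalization (4649 at an unadjusted p under 0.05), in the authors' values (4620) and without the filter on dim probes (5322), and 1281 in the authors' values with the replicate block. Without single arrays it called 0 to 1163, and with the replicate block 4640, 697 and 1629 without pair 1, 2 and 3, a setting chosen after seeing the data. The profile sets of 30, 16 and 8 became 30, 18 and 14 at a limit of 0.9 and 15, 10 and 8 at 0.98. A stricter definition of unnamed was not run, since the files hold no gene names. Causes were not tested.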

Other observations

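Among 3409 probes without an NM_ or XM_ name that the authors' table does not list, 157 met the same rule on scanner values scaled to the 75th percentile. Of these, 0 were well above background on all 3 exoNOD arrays, so none adds a level measured on every exoNOD array. Some, such as AK139496, were above background on 2 exoNOD arrays and on 0 control arrays. The Mirt2 probe given above is among the 157.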
